A study of Homo sapiens with 24 samples.

Results

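TXNIP, ARRDC4, MLXIP and MLXIPL, genes of cellular glucose sensing, are described here across 8 groups of cultured biliary tract cancer cells. They were matched by symbol to the gene IDs of the deposited count tables and make up 4 of the 78724 gene IDs in each table. The set was chosen by function, but with the low TXNIP levels under drug relative to vehicle in these data already known. The vehicle contrasts of all 4 genes are therefore given as values with no test, and tests are used only between drug arms, between the lines without drug and between the lines in the drug-arm contrasts.

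MLXIP encodes MondoA and MLXIPL encodes ChREBP, transcription factors that become active when glucose 6-phosphate builds up in the cell. Each works together with the partner protein MLX on carbohydrate response elements, which are pairs of E-box-like sequences spaced a short distance apart. TXNIP and ARRDC4 are best known as targets of MondoA: both encode arrestin-domain proteins that hold back glucose uptake, and TXNIP also binds and inhibits thioredoxin. ChREBP is known mainly from liver and fat, where it drives genes of glycolysis and fatty acid synthesis, while MondoA is found in many tissues.

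RNA sequencing was done on 2 lines, OCUG-1, a gallbladder cancer line kept in DMEM, and HuCCT1, an intrahepatic cholangiocarcinoma line kept in RPMI-1640. For 72 h each line received 1.25 µM sorafenib with 1 µM IACS-010759 (the combination), 10 µM sorafenib, 1.25 µM sorafenib or DMSO vehicle of at most 0.1%. Sorafenib is a multikinase inhibitor used in liver cancer. IACS-010759 blocks complex I of the mitochondrial respiratory chain. Each group had 3 libraries from independent biological replicates. No arm had IACS-010759 alone. The lines were kept in different media, whose glucose content is not among the values used here, so line and medium cannot be told apart, and each line stands only for itself.

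TXNIP (ENSG00000265972) lies on the minus strand at chr1:145992435-145996600 and ARRDC4 (ENSG00000140450) on the plus strand at chr15:97960698-97973838, both in GRCh38 with GENCODE release 29. MLXIP (ENSG00000175727) lies at chr12:122078722-122147347 on the plus strand and MLXIPL (ENSG00000009950) at chr7:73593194-73624543 on the minus strand. No exon of another annotated gene overlapped their exons.

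The promoters of TXNIP and ARRDC4 are shown because these genes are known targets of MondoA yet moved differently in OCUG-1. Each sequence is the 250 bases before the RefSeq transcription start on GRCh38.p14, written along the gene's own strand, at chr1:145996580-145996829 for TXNIP and chr15:97960453-97960702 for ARRDC4. Capitals mark every match to the E-box-like motif CACGNG on either strand.
TXNIP: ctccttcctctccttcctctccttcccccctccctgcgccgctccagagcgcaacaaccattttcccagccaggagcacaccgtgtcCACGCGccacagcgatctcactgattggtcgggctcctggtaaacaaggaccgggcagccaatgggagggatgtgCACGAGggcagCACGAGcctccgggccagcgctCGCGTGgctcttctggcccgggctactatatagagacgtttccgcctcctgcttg
ARRDC4: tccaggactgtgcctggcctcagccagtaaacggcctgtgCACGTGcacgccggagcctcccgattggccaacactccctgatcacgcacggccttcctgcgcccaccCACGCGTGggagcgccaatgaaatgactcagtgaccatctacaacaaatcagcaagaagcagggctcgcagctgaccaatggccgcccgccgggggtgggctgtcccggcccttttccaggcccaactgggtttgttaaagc

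In TXNIP, 2 CACGNG matches on the same strand had 5 bases between them. This same-strand pair, CACGNG followed by 5 bases of any kind and a second CACGNG, ran from position -88 to -72 before the start. Searched on both strands, it was present in 16 of 35116 promoters of the same length (0.0456%). ARRDC4 had no such pair in this window. It held instead the full E-box CACGTG at -210 to -205, a motif present in 6.34% of all promoters. Counting single CACGNG motifs on both strands, TXNIP had 4 matches and ARRDC4 had 3, of which 2 overlap each other at -142 to -135, while MLXIP and MLXIPL had 0. At least 1 such match was found in 26.7% of promoters, and the spaced pair and CACGTG are themselves counted among these matches. A second RefSeq start of TXNIP had no match. Among 26 other target genes of MondoA or ChREBP, 19 had a listed promoter: none held the same-strand pair and 3 held CACGTG (PKLR, KLF11 and BHLHE40). These matches are descriptions of sequence, and a promoter without one says nothing about binding. Pairs with the second motif on the opposite strand were not searched for. The search therefore cannot show whether ARRDC4 or the other targets lack a carbohydrate response element. The share of promoters with the pair holds for the same-strand pattern only.

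Libraries held 14388855 to 24019011 counts in OCUG-1 and 18238834 to 30693736 in HuCCT1. All 4 genes passed the filter on low counts in both lines. The lowest raw count of any of them was 49, for MLXIPL in a HuCCT1 library at 10 µM. Levels are given as CPM, counts scaled to library size. The 6 biliary epithelial markers examined were all above 10 CPM in both lines, as were 2 of 6 fibroblast markers (COL1A1 highest) and 1 of 8 hepatocyte markers, but none of 5 endothelial and 5 immune markers. Mitochondrially encoded RNA took 4.71% to 13.6% of counts in OCUG-1 and 7.08% to 21.8% in HuCCT1. In these bulk samples, fewer cells of a kind and less RNA per cell cannot be told apart.

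Without drug, the lines differed in TXNIP, ARRDC4 and MLXIPL. Per transcript length, TXNIP reached 40.3 ± 11.0 TPM (counts scaled to exon length and library) in OCUG-1 vehicle libraries and 451 ± 99.7 TPM in HuCCT1 vehicle libraries (mean ± SD, n = 3). ARRDC4 had 8.28 ± 1.91 TPM in OCUG-1 and 33.0 ± 5.78 TPM in HuCCT1. MLXIP had 23.6 ± 1.07 TPM in OCUG-1 and 19.6 ± 2.95 TPM in HuCCT1. The ChREBP gene MLXIPL had 19.0 ± 2.12 TPM in OCUG-1 and 3.81 ± 0.342 TPM in HuCCT1. TXNIP thus had the highest TPM of the 4 genes in both vehicle groups, whereas the lowest was ARRDC4 in OCUG-1 and MLXIPL in HuCCT1. The top rank in OCUG-1 rests on the exon lengths used, 13905 bases for MLXIP and 3625 for TXNIP. In CPM, MLXIP was above TXNIP in OCUG-1 vehicle libraries (115 against 51.0 on average).

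In the test across all genes, 3 of the 4 genes differed between the vehicle groups, against 68.3% of the 22944 genes tested. TXNIP was 11.9-fold lower in OCUG-1 than in HuCCT1, a log2 fold change of -3.57 ± 0.24 (± SE; edgeR quasi-likelihood test, Benjamini-Hochberg adjusted p = 2.45e-11). For ARRDC4 it was -2.10 ± 0.15 (edgeR adjusted p = 2.40e-13). MLXIPL was 4.65-fold higher in OCUG-1, by 2.22 ± 0.22 (edgeR adjusted p = 3.13e-10). MLXIP, at 0.18 ± 0.09, did not pass the threshold of 0.05 (edgeR adjusted p = 0.0845), with a 95% interval of -0.0086 to 0.37. It passed with library totals in place of TMM scaling (0.33) and with DESeq2 (0.19). The partner gene MLX was lower in OCUG-1 by -0.96 ± 0.11 (edgeR adjusted p = 1.02e-08). At the vehicle level, then, OCUG-1 held more MLXIPL and less MLX, TXNIP and ARRDC4 RNA than HuCCT1.

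**Figure D1:**
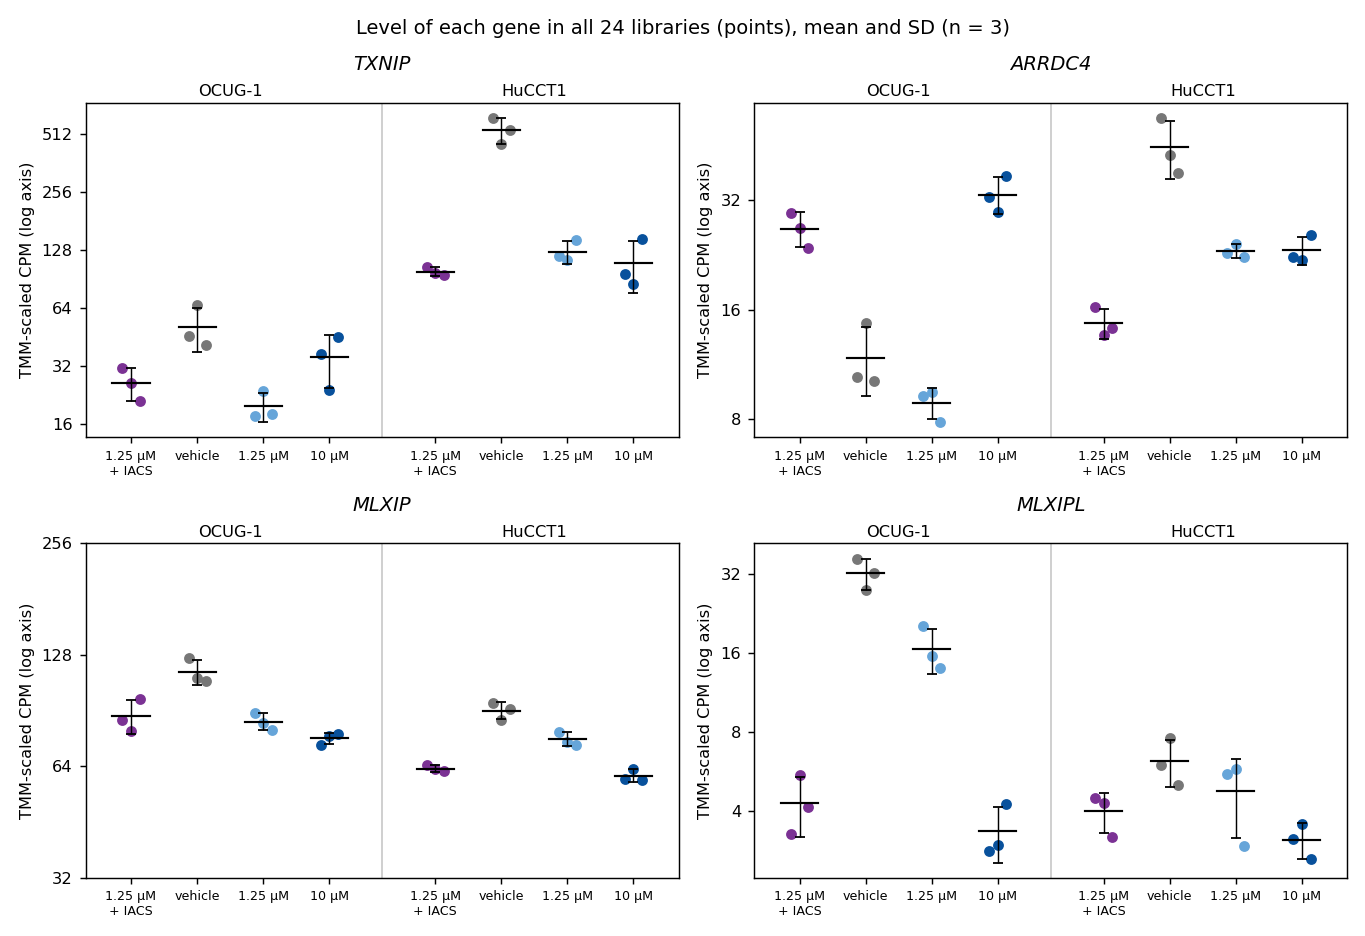
Level of each gene in every library, as CPM scaled by TMM (trimmed mean of M values) within each line, on a log axis. Points are libraries, horizontal bars the mean and vertical bars the SD of 3 libraries. In OCUG-1 the ARRDC4 points of the combination and of 10 µM sorafenib lie above those of vehicle and 1.25 µM sorafenib, while the MLXIPL points lie below them.

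TXNIP had lower levels under 1.25 µM sorafenib than under vehicle in both lines. The higher dose raised it relative to 1.25 µM in OCUG-1, and no drug-arm contrast passed in HuCCT1. In OCUG-1 its CPM was 45.7, 66.1 and 41.3 under vehicle, 17.7, 23.6 and 17.9 at 1.25 µM, and 37.0, 24.0 and 45.5 at 10 µM. The combination libraries of OCUG-1 had 31.2, 26.2 and 21.1 CPM. All 3 libraries at 10 µM were above all 3 at 1.25 µM and overlapped those of vehicle, while the combination overlapped the 1.25 µM arm.

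TXNIP rose 1.79-fold in OCUG-1 at 10 µM relative to 1.25 µM, by 0.84 ± 0.23 (log2 fold change ± SE; edgeR adjusted p = 0.00611). This call held in each alternative tried and when any 1 of the 6 libraries was left out (0.60 to 1.03). The addition of IACS-010759 to 1.25 µM gave 0.40 ± 0.23, which did not pass (edgeR adjusted p = 0.157). Its 95% interval was -0.10 to 0.90, and it passed with library totals as the scale (0.55) and with no filter on low counts (0.37). Between the combination and 10 µM the change was -0.44 ± 0.23 (edgeR adjusted p = 0.277). Against vehicle, TXNIP in OCUG-1 stood at -1.36 ± 0.23 at 1.25 µM, -0.53 ± 0.22 at 10 µM and -0.96 ± 0.23 with the combination, so the distance from vehicle was smallest at the higher dose.

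The levels in HuCCT1 were several times higher and fell into a vehicle group and a drug group. The CPM of TXNIP was 623, 455 and 541 under vehicle, 119, 113 and 145 at 1.25 µM, and 96.4, 85.2 and 147 at 10 µM. With the combination it was 105, 97.2 and 94.7. All 9 drug libraries lay below all 3 vehicle libraries, and among the drug arms 10 µM spread the most.

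No drug-arm contrast of TXNIP passed in HuCCT1. The combination minus 1.25 µM was -0.34 ± 0.17 (edgeR adjusted p = 0.211; 95% interval -0.71 to 0.019), although its 3 libraries all lay below the 1.25 µM libraries. In a fit of only these 6 libraries it passed (edgeR adjusted p = 0.0495). The 10 µM arm minus 1.25 µM was -0.20 ± 0.17 (edgeR adjusted p = 0.414) and the combination minus 10 µM was -0.14 ± 0.17 (edgeR adjusted p = 0.678). Both values moved with 1 library. Without replicate 3 at 10 µM, the 10 µM minus 1.25 µM value was -0.47 and passed (edgeR adjusted p = 0.0229). The combination minus 10 µM value turned to 0.12 and again did not pass (edgeR adjusted p = 0.671). The library left out held 147 CPM of TXNIP and the lowest mitochondrial share of its arm, 8.32%. Replicate 3 at 1.25 µM, which stayed in, was likewise highest in TXNIP (145 CPM) and lowest in this share (12.5%) of its arm. The part of this share in the result was not tested. Against vehicle the log2 fold changes were -2.10 ± 0.18 at 1.25 µM, -2.30 ± 0.18 at 10 µM and -2.45 ± 0.18 with the combination.

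Whether the higher dose acted differently on TXNIP in the 2 lines was tested as an interaction. The 10 µM minus 1.25 µM contrast was 0.93 ± 0.32 greater in OCUG-1 than in HuCCT1 (edgeR adjusted p = 0.0260). This call is fragile. It was lost in 7 of the 12 fits that leave out 1 library, where the adjusted p reached 0.0946 and the value was 0.71 without replicate 3 of OCUG-1 at 10 µM, and with no filter on low counts. For the combination minus 1.25 µM the line difference was 0.63 ± 0.33 (edgeR adjusted p = 0.139; 95% interval -0.053 to 1.30).

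ARRDC4, the closest relative of TXNIP in this set, split the lines. In OCUG-1 its CPM was 10.4, 14.7 and 10.2 under vehicle, 9.24, 9.48 and 7.85 at 1.25 µM, and 32.6, 29.6 and 37.3 at 10 µM. The combination gave 29.6, 26.8 and 23.7 CPM. Every library at 10 µM and in the combination was above every vehicle and 1.25 µM library, without overlap.

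In OCUG-1, ARRDC4 rose 3.00-fold when IACS-010759 was added to 1.25 µM sorafenib, to 26.7 ± 2.97 CPM in the combination, against 8.85 ± 0.882 CPM at 1.25 µM (SD, n = 3 each). The log2 fold change was 1.59 ± 0.16 (edgeR adjusted p = 1.07e-07). ARRDC4 and MLXIPL were the 2 of 4 genes to pass in this contrast, against 58.1% of all 20511 genes tested, so the number of calls is near the background. At 10 µM, ARRDC4 rose 3.73-fold relative to 1.25 µM, by 1.90 ± 0.16 (edgeR adjusted p = 9.42e-09). There 3 of the 4 genes passed (TXNIP as well), against 60.5% of all genes. Both contrasts share the same 1.25 µM libraries. Between the combination and 10 µM, ARRDC4 differed by -0.31 ± 0.14 (edgeR adjusted p = 0.207; 95% interval -0.61 to -0.013), and 0 of the 4 genes passed, against 5.25% of all genes. At an unadjusted p under 0.05, ARRDC4 alone of the 4 would pass there, and DESeq2 called 0 as well, while TXNIP passed with no filter on low counts (-0.44, edgeR adjusted p = 0.0419). Against vehicle, ARRDC4 was higher by 1.18 ± 0.15 with the combination and by 1.49 ± 0.15 at 10 µM, and lower by -0.41 ± 0.16 at 1.25 µM.

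In HuCCT1 all drug arms held less ARRDC4 than vehicle. The CPM was 54.0, 42.6 and 38.1 under vehicle, 22.9, 24.3 and 22.4 at 1.25 µM, 22.3, 21.9 and 25.7 at 10 µM. The combination had the lowest values of the line, 16.3, 13.6 and 14.2 CPM. ARRDC4 fell in HuCCT1 when IACS-010759 was added to 1.25 µM, by -0.66 ± 0.13 (edgeR adjusted p = 0.00487), and it was the only gene of the 4 to pass there, against 11.6% of the 19576 genes tested. It was also lower in the combination than at 10 µM, by -0.66 ± 0.13 (edgeR adjusted p = 0.00623), again as 1 of 4, against 7.69% of all genes. The doses gave 0.0054 ± 0.13 for 10 µM minus 1.25 µM (edgeR adjusted p = 0.980; 95% interval -0.27 to 0.28). Against vehicle the values were -0.95 ± 0.13 at 1.25 µM, -0.95 ± 0.13 at 10 µM and -1.61 ± 0.13 with the combination.

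The line difference in the response of ARRDC4 was larger than its error in both drug-arm contrasts. For the combination minus 1.25 µM it was 2.12 ± 0.21 (OCUG-1 minus HuCCT1; edgeR adjusted p = 3.38e-09), and for 10 µM minus 1.25 µM it was 1.79 ± 0.21 (edgeR adjusted p = 6.11e-08). Of the 4 genes, 2 passed in the first, against 38.8% of all genes, and 3 in the second, against 40.3%. For the combination minus 10 µM the difference was 0.34 ± 0.20 (edgeR adjusted p = 0.473), and 0 of 4 passed with edgeR or DESeq2, with 0 at an unadjusted p under 0.05, against 1.50% of all genes.

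**Figure D2:**
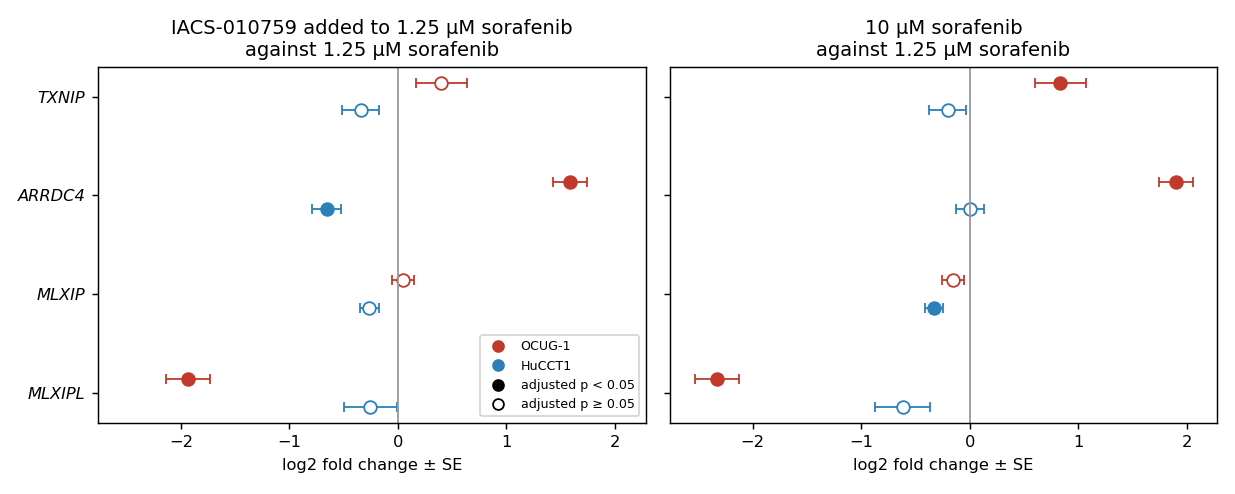
Log2 fold changes with their SE for the 4 genes in the combination against 1.25 µM sorafenib (left) and in 10 µM against 1.25 µM sorafenib (right). Filled points passed an adjusted p of 0.05. ARRDC4 was at 1.59 in OCUG-1 and -0.66 in HuCCT1 when IACS-010759 was added, and MLXIPL was at -1.94 in OCUG-1 and -0.25 in HuCCT1.

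TXNIP and ARRDC4 therefore kept different proportions in the arms. The ratio of their counts within a library does not depend on scaling and is given with no test. In OCUG-1 the ratio of TXNIP to ARRDC4 counts was 4.05 to 4.50 under vehicle, 1.91 to 2.49 at 1.25 µM and 0.809 to 1.22 at 10 µM. The combination gave 0.890 to 1.05 in OCUG-1. In HuCCT1 it was 10.7 to 14.2 under vehicle, 4.67 to 6.49 at 1.25 µM, 3.89 to 5.71 at 10 µM and 6.46 to 7.16 with the combination. The vehicle libraries had the highest ratios in each line. The combination and 10 µM arms of OCUG-1 had about as many ARRDC4 as TXNIP counts.

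**Figure D3:**
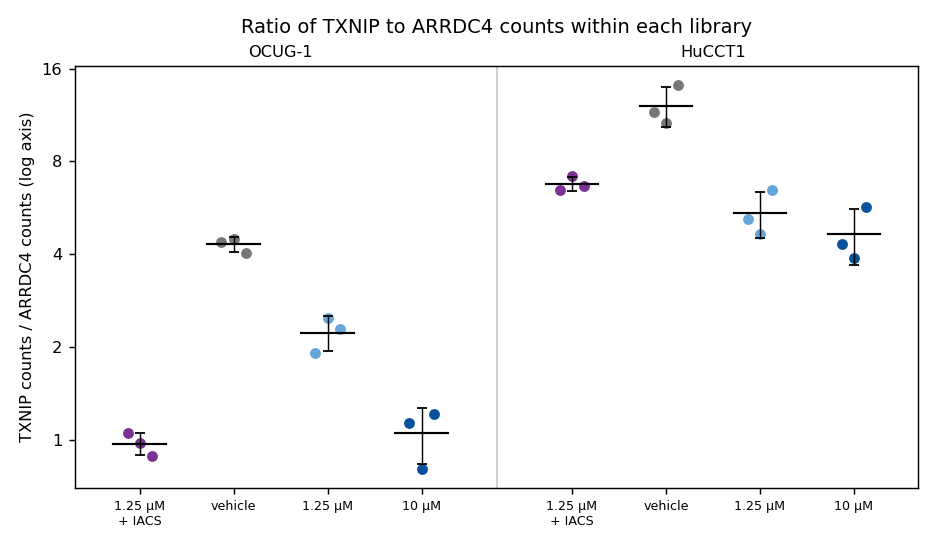
Ratio of TXNIP counts to ARRDC4 counts in each library, on a log axis, with the mean and SD of 3 libraries. In OCUG-1 the ratio was 4.05 to 4.50 under vehicle and near 1 in the combination and 10 µM arms, and every HuCCT1 library had a ratio of 3.89 or more.

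Over the 12 libraries of a line, on log2 CPM, TXNIP and ARRDC4 had a Pearson correlation of 0.21 in OCUG-1 (Spearman 0.43) and 0.90 in HuCCT1 (Spearman 0.87). The 12 points share 4 arms and one scaling, so these values are descriptions only. With MLXIP the Pearson correlation of TXNIP was 0.47 in OCUG-1 and 0.86 in HuCCT1, and with MLXIPL it was 0.24 and 0.57. By the lower value of the 2 lines, ARRDC4 ranked 976 of 12793 protein-coding genes tested in both lines by Pearson and 129 by Spearman correlation. The 5 genes most like TXNIP by that measure were BICRAL, a relative of a chromatin remodelling subunit (0.90 in OCUG-1, 0.95 in HuCCT1), the histone genes H2BC21 (0.88, 0.89) and H3C10 (0.85, 0.77), the zinc finger gene ZNF189 (0.83, 0.77) and TSC1, a brake on mTORC1 signalling (0.78, 0.76). Of these 5, H3C10 was low, at 1.16 to 5.84 CPM in OCUG-1 and 0.66 to 4.02 CPM in HuCCT1, and H2BC21 reached down to 1.23 CPM in OCUG-1. Ranked by Spearman correlation instead, TFE3 and CTNS entered the first 5 and ZNF189 and TSC1 left them.

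MLXIP, the MondoA gene, was lower in every drug arm than under vehicle in both lines, and no drug-arm contrast of it passed in OCUG-1. In OCUG-1 its CPM was 126, 111 and 109 under vehicle, 89.3, 83.9 and 80.4 at 1.25 µM, and 72.9, 77.3 and 78.1 at 10 µM. With the combination it was 85.4, 79.7 and 97.3. The vehicle libraries stood above all drug libraries, and the combination overlapped 1.25 µM. MLXIP differed by 0.049 ± 0.10 between the combination and 1.25 µM (edgeR adjusted p = 0.697, 95% interval -0.16 to 0.26). Between 10 µM and 1.25 µM it differed by -0.15 ± 0.10 (edgeR adjusted p = 0.199, 95% interval -0.36 to 0.058). In TPM all libraries at 10 µM (17.6 to 19.2) and with the combination (18.8 to 25.0) lay above those at 1.25 µM (16.2 to 16.6). The combination overlapped vehicle in TPM (22.8 to 24.8). The direction at 10 µM thus depended on the scale.

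In HuCCT1, MLXIP had 94.8, 85.6 and 91.2 CPM under vehicle, 79.4, 74.7 and 73.1 CPM at 1.25 µM, and 59.2, 63.1 and 58.7 CPM at 10 µM. The combination gave 64.5, 62.9 and 62.0 CPM. The arms at 10 µM and with the combination overlapped and lay below 1.25 µM, which lay below vehicle. MLXIP fell at 10 µM relative to 1.25 µM, by -0.33 ± 0.09 (edgeR adjusted p = 0.0104), 1 of 4 genes to pass there, against 28.2% of all genes. The call was lost without replicate 1 at 1.25 µM (-0.29, edgeR adjusted p = 0.0540) and with library totals as the scale (-0.15). No filter on low counts also lost it (-0.31, edgeR adjusted p = 0.0895). So did leaving the other arms out of the fit (-0.31, edgeR adjusted p = 0.0545). In TPM the 1.25 µM libraries (11.5 to 14.4) spanned those at 10 µM (13.5 to 14.1) and with the combination (13.5 to 13.9). Mean TPM was 12.5 at 1.25 µM, 13.9 at 10 µM and 13.7 with the combination, so the direction depended on the scale. The combination minus 1.25 µM, at -0.26 ± 0.09, missed the threshold (edgeR adjusted p = 0.0593) and passed with DESeq2 (adjusted p = 0.0159). Against vehicle, MLXIP was lower in all drug arms, by -0.26 ± 0.09 to -0.59 ± 0.09 in HuCCT1 and by -0.40 ± 0.10 to -0.60 ± 0.10 in OCUG-1. The line differences in the drug-arm contrasts were 0.073 to 0.19 and none passed (edgeR adjusted p from 0.258 to 0.742).

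MLXIPL, the ChREBP gene, had the widest range of the 4 genes in OCUG-1, as a ratio of highest to lowest library, and the lowest levels in HuCCT1. In OCUG-1 its CPM was 36.5, 27.7 and 32.3 under vehicle, 20.2, 15.6 and 13.9 at 1.25 µM, and 2.80, 2.95 and 4.25 at 10 µM. The combination gave 3.25, 5.46 and 4.15. Neither the combination nor the 10 µM libraries overlapped those at 1.25 µM or under vehicle, and both arms had reached the level seen in HuCCT1.

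MLXIPL fell 3.83-fold in OCUG-1 with the combination relative to 1.25 µM, to 4.29 ± 1.11 CPM in the combination, against 16.6 ± 3.24 CPM at 1.25 µM (log2 fold change -1.94 ± 0.20, edgeR adjusted p = 2.25e-07). At 10 µM it fell 5.02-fold relative to 1.25 µM, by -2.33 ± 0.21 (edgeR adjusted p = 2.63e-08). The combination and 10 µM differed by 0.39 ± 0.22 (edgeR adjusted p = 0.315; 95% interval -0.077 to 0.86). Against vehicle, MLXIPL stood at -0.96 ± 0.18 at 1.25 µM, -3.29 ± 0.21 at 10 µM and -2.90 ± 0.20 with the combination.

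Marker lists of other cell types also stood at different levels between the arms of OCUG-1. The summed level of 8 hepatocyte markers was 112 to 140 CPM under vehicle, 38.4 to 39.9 at 1.25 µM, 11.1 to 13.2 at 10 µM and 8.16 to 10.7 with the combination. Most of this sum was FGB, a fibrinogen chain, with 116 CPM on average under vehicle, 32.8 at 1.25 µM, 5.26 at 10 µM and 3.51 with the combination. ALB went the other way at low levels, with 1.40 CPM in the combination and 2.44 at 10 µM, against 0.174 at 1.25 µM. APOA1 and TTR were at 0 under vehicle and 1.25 µM and averaged below 0.2 CPM in the other arms, and APOB was at 0 in every OCUG-1 library. The 6 fibroblast markers summed to 54.1 to 70.1 CPM with the combination and 66.9 to 106 at 10 µM, against 179 to 201 at 1.25 µM. The line's own biliary markers were low in the same arms, at 1568 to 1821 CPM with the combination and 1258 to 1608 at 10 µM, against 5974 to 7668 at 1.25 µM. The mitochondrial share was 4.71% to 6.48% with the combination and 5.65% to 6.25% at 10 µM, against 9.39% to 13.1% at 1.25 µM. In HuCCT1 the hepatocyte sum was 165 to 240 CPM over all arms and came mostly from SERPINA1. The biliary sum of HuCCT1 was 9316 to 9874 CPM with the combination and 6997 to 9568 at 10 µM, against 10610 to 12441 at 1.25 µM. Its mitochondrial share was 10.45% to 12.6% with the combination and 8.32% to 11.6% at 10 µM, against 12.5% to 21.8% at 1.25 µM. The part of these shifts in the results of either line was not tested.

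In HuCCT1, MLXIPL had 5.97, 7.56 and 5.03 CPM under vehicle, 5.51, 5.77 and 2.92 CPM at 1.25 µM, and 3.11, 3.57 and 2.61 CPM at 10 µM. With the combination it had 4.48, 4.28 and 3.19 CPM. The drug arms overlapped one another, and raw counts of 49 to 169 stand behind these values. The combination minus 1.25 µM was -0.25 ± 0.25 (edgeR adjusted p = 0.555; 95% interval -0.78 to 0.27) and 10 µM minus 1.25 µM was -0.62 ± 0.25 (edgeR adjusted p = 0.0812; 95% interval -1.15 to -0.077). The second passed without replicate 3 at 1.25 µM (-0.86, edgeR adjusted p = 0.00851) and with a replicate block (-0.59, edgeR adjusted p = 0.0287). The line difference of MLXIPL was -1.80 ± 0.33 for the combination minus 1.25 µM (edgeR adjusted p = 5.18e-05) and -1.81 ± 0.34 for 10 µM minus 1.25 µM (edgeR adjusted p = 6.81e-05), so the falls in OCUG-1 exceeded the changes in HuCCT1 beyond their error.

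Ordered over all 8 groups on a scale shared by both lines, TXNIP was highest in HuCCT1 vehicle (578 ± 90.8 CPM, SD, n = 3) and lowest in OCUG-1 at 1.25 µM (19.2 ± 3.36 CPM). The 3 HuCCT1 drug arms came next (1.25 µM 134, 10 µM 117 and combination 106 CPM); the 10 µM libraries overlapped those of both other arms, while the combination and 1.25 µM libraries did not overlap. All 4 OCUG-1 arms came below them, each overlapping its neighbour. For ARRDC4 the order mixed the lines: HuCCT1 vehicle at 48.1 CPM stood apart, then OCUG-1 at 10 µM (30.2), HuCCT1 at 10 µM and 1.25 µM (25.0 and 24.8) and the OCUG-1 combination (24.0) followed, each overlapping its neighbour. HuCCT1 with the combination (15.7), OCUG-1 vehicle (11.2) and OCUG-1 at 1.25 µM (8.63) closed the order and were each apart. For MLXIPL only OCUG-1 vehicle (30.7) and OCUG-1 at 1.25 µM (16.1) stood apart, and the other 6 groups lay between 6.62 and 3.03 CPM with neighbours overlapping. MLXIP spanned the narrowest range as a ratio of highest to lowest group, with 110 CPM in OCUG-1 vehicle at the top and 64.6 CPM in HuCCT1 at 10 µM at the bottom.

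The partner gene MLX rose in OCUG-1 with the combination and at 10 µM, as ARRDC4 did. MLX had 51.3 ± 5.54 CPM with the combination and 33.6 ± 2.82 CPM at 1.25 µM, a log2 fold change of 0.61 ± 0.11. At 10 µM it had 57.6 ± 4.67 CPM, a change of 0.77 ± 0.11. Of 10 tested genes of the MAX network, the family of MLX, 6 rose and 3 fell with the combination (58.1% of all genes passed) and 5 rose and 3 fell at 10 µM (60.5%). MXD1, a repressor that pairs with MAX, rose by 2.47 ± 0.13 with the combination and by 2.80 ± 0.13 at 10 µM, and its family member MXD3 fell by 2.73 ± 0.16 and by 2.61 ± 0.16. In HuCCT1, 2 of 10 rose and 1 fell with the combination, and 2 passed at 10 µM, both higher, against 11.6% and 28.2% of all genes. MLX had -0.10 ± 0.11 and -0.11 ± 0.11 there, values that turned positive with library totals as the scale.

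Other targets of MondoA and ChREBP did not move in 1 direction in OCUG-1. Of 26 listed genes 21 were tested, and 8 rose and 11 fell with the combination relative to 1.25 µM, while 8 rose and 10 fell at 10 µM, against 58.1% and 60.5% of all genes passing. The median log2 fold change was -0.57 with the combination and -0.41 at 10 µM, beside 0.063 and 0.027 over all genes. Those that fell included the lipid synthesis genes FASN, by 2.05 ± 0.15 with the combination and 2.25 ± 0.15 at 10 µM, ELOVL6, by 1.51 ± 0.10 and 1.92 ± 0.10, and SCD, by 1.81 ± 0.16 and 1.90 ± 0.16. The glycolytic genes HK2, a hexokinase, and PFKFB3, which sets the level of an activator of phosphofructokinase, rose by 1.40 ± 0.14 and 0.39 ± 0.11 with the combination. TKT fell by 2.03 ± 0.15 with the combination and by 2.02 ± 0.15 at 10 µM. The largest rises of the list were those of GPD1, by 2.87 ± 0.44 and 2.45 ± 0.45, and FGF21, by 2.11 ± 0.41 and 3.36 ± 0.38.

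In HuCCT1, 19 of the 26 were tested. With the combination 2 passed, both lower, against 11.6% of all genes: SCD by 0.86 ± 0.20 and PNPLA3, a lipid droplet protein, by 0.46 ± 0.13, the second of which was lost with library totals or no filter on low counts. The count of 2 became 4 with DESeq2 or the replicate block and 9 when only the compared groups were fitted. At 10 µM, 4 rose and 4 fell, against 28.2% of all genes. HK2 was at -0.31 ± 0.14 with the combination and -0.019 ± 0.14 at 10 µM and passed in neither. The first passed when only the compared groups were fitted (-0.29, edgeR adjusted p = 0.0462), and the second turned positive with library totals or no filter on low counts. The median over the list was -0.11 with the combination and -0.019 at 10 µM, beside 0.0016 and -0.0021 over all genes.

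**Figure D4:**
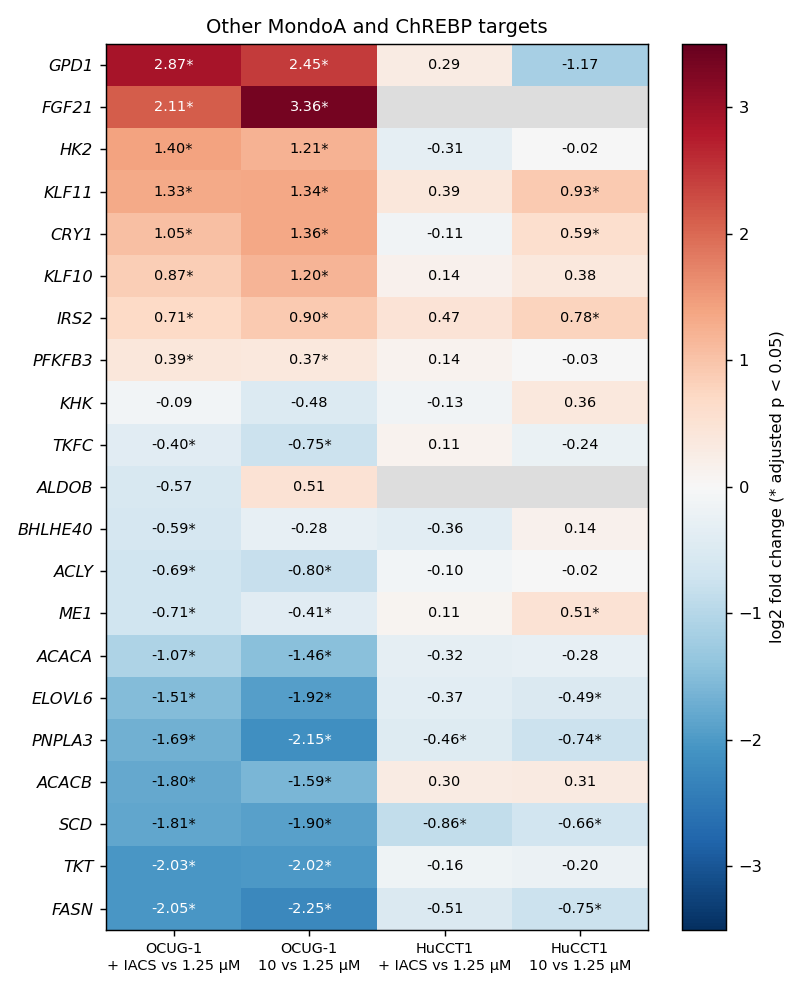
Log2 fold changes of the other listed targets of MondoA and ChREBP that were tested, in the combination against 1.25 µM sorafenib and in 10 µM against 1.25 µM sorafenib, by line; an asterisk marks an adjusted p under 0.05 and grey a gene not tested in HuCCT1. In OCUG-1 rises (HK2 1.40) and falls (FASN -2.05) stood side by side, and the HuCCT1 values of HK2 and PFKFB3 at 10 µM change sign with library totals as the scale.

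The other arrestin-domain genes did not follow ARRDC4 as a group. Of 5 tested in OCUG-1, 1 rose and 3 fell in each of the contrasts, against 58.1% and 60.5% of all genes passing. ARRDC3, another arrestin-domain gene, rose by 0.43 ± 0.14 with the combination (edgeR adjusted p = 0.0156) and by 1.01 ± 0.14 at 10 µM (edgeR adjusted p = 8.47e-06), and ARRB1, a beta-arrestin, fell by 1.60 ± 0.20 and by 1.93 ± 0.20. In HuCCT1, ARRDC3 had -0.14 ± 0.20 with the combination and 0.15 ± 0.20 at 10 µM, and the first value turned positive with library totals as the scale. There 1 of 5 rose with the combination (11.6% of all genes passed), a count of 2 or 3 in 4 of the 5 alternatives, and 1 rose and 1 fell at 10 µM (28.2%).

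Genes of the thioredoxin system, with which TXNIP interacts, fell where they passed in OCUG-1, which was 7 of 12 with the combination and 7 of 12 at 10 µM, close to the 58.1% and 60.5% of all genes that passed. TXNRD1, the cytosolic thioredoxin reductase, fell by 0.52 ± 0.14 and by 0.47 ± 0.14, and MAP3K5, a stress kinase held by thioredoxin, fell by 1.10 ± 0.13 and by 0.94 ± 0.13. TXN itself was at -0.22 ± 0.11 with the combination and fell by 0.45 ± 0.11 at 10 µM. In HuCCT1, TXNRD1 rose by 0.65 ± 0.16 with the combination and by 0.84 ± 0.16 at 10 µM, where 1 of 12 rose and 1 fell in the first contrast and 3 rose and 4 fell in the second, against 11.6% and 28.2% of all genes. The first of these counts, 2, became 4 with no filter, the replicate block or only the compared groups in the model.

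Among glucose transporters, 4 of 11 rose and 4 fell in each contrast in OCUG-1, against 58.1% (combination) and 60.5% (10 µM) of all genes passing. SLC2A1, which encodes GLUT1, a transporter that TXNIP is known to hold back, rose to 131 ± 18.3 CPM with the combination, against 60.6 ± 15.8 CPM at 1.25 µM, by 1.11 ± 0.16 (edgeR adjusted p = 1.98e-05). At 10 µM it rose by 0.47 ± 0.16. SLC2A9, a urate and hexose transporter, had 5.59 to 8.80 CPM with the combination and 7.48 to 17.2 CPM at 10 µM, against 0.0660 to 0.291 CPM at 1.25 µM. In HuCCT1, 1 of 10 passed with the combination, a fall, against 11.6% of all genes, and 2 rose and 2 fell at 10 µM, against 28.2%. SLC2A1 passed in neither contrast (0.21 ± 0.16 and -0.34 ± 0.16).

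Genes that supply or use glucose 6-phosphate were mixed in OCUG-1 as well, with 6 of 15 rising and 6 falling with the combination, and 5 rising and 8 falling at 10 µM, where 58.1% and 60.5% of all genes passed. HKDC1, a hexokinase relative, rose by 1.40 ± 0.10 with the combination. In HuCCT1, 2 rose and 1 fell with the combination and 2 rose and 3 fell at 10 µM, where 11.6% and 28.2% of all genes passed. HK2 and PFKFB3 belong to this list and to the target list.

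Of the ubiquitin ligases and AMPK subunits that act on TXNIP protein, 5 of 11 rose and 1 fell in OCUG-1 with the combination, and 5 passed at 10 µM, all higher, shares below the 58.1% and 60.5% of all genes that passed. NEDD4L, a ubiquitin ligase, rose by 1.30 ± 0.11 and by 1.31 ± 0.11. ITCH, the ligase best known for marking TXNIP for degradation, was at 0.25 ± 0.13 with the combination and rose by 0.36 ± 0.13 at 10 µM in OCUG-1. The first of these values passed with library totals as the scale (0.40, edgeR adjusted p = 0.0186). In HuCCT1 ITCH rose by 0.51 ± 0.12 with the combination and by 0.81 ± 0.12 at 10 µM. At 10 µM 6 of 11 passed in HuCCT1, all higher, against 28.2% of all genes. With the combination 2 of 11 passed there, both higher, against 11.6%. TXNIP protein was not measured here.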

How the data were processed

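Total RNA (TRIzol) from 24 libraries was sequenced as TruSeq mRNA libraries with paired 150-base reads, per the labels' protocols. The authors deposited raw counts per Ensembl gene, 1 table per line, without normalization. Per the submitters' processing notes the tools were bcl2fastq, fastp 1.3.2, HISAT2 2.2.2, featureCounts of Subread 2.1.1, MultiQC 1.33, R 4.4.1 and DESeq2 1.42.1, with the build GRCh38. No label or header names the annotation release, strand setting or treatment of multi-mapping reads. Per the labels 4 OCUG-1 libraries had additional sequencing runs, and which ones is not stated. Of 78724 IDs, 61481 matched a gene name and 57302 were in GENCODE release 29.

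The counts went into edgeR 4.0.16 under R 4.3.3: TMM scaling, filterByExpr with a minimum count of 10, and robust quasi-likelihood F tests, two-sided, in 1 fit of 12 libraries per line (19576 genes in HuCCT1, 20511 in OCUG-1) and 1 fit of 24 libraries (22944 genes) between lines. Adjusted p-values are Benjamini-Hochberg over all genes tested, with calls under 0.05. SEs come from the F statistic and log fold change. CPM are scaled by TMM within a line unless said otherwise, and TPM use the union of GENCODE exons. The steps were tested on simulated data. Alternatives were library totals as the scale, DESeq2 1.42.0, no filter, only the compared groups in the fit, a replicate block and each library left out.

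The 4 genes, the gene lists and the comparisons were chosen with earlier results of these data known. List genes named are a fixed panel (MLX, SLC2A1, HK2, PFKFB3, ARRDC3, TXN, TXNRD1, ITCH) and up to 4 passing genes with the smallest adjusted p per list and comparison, of which the text gives a selection. GPD1 and FGF21 are named as well, for the largest rises of the target list in OCUG-1. Genes like TXNIP are the 5 with the highest lower Pearson correlation of both lines, on log2 CPM with a prior count of 2. Promoter sequences are from RefSeq (GRCh38.p14), and all 4 genes matched by symbol.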

Additional observations from a re-analysis of the deposited data

Results flagged for a closer look

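The contrasts between drug arms differed between the lines for 3 of the 4 genes. The combination minus 1.25 µM sorafenib was 2.12 higher on the log2 scale in OCUG-1 than in HuCCT1 for ARRDC4. In CPM, ARRDC4 was higher in all 3 OCUG-1 combination libraries than in every 1.25 µM library, and lower in all 3 HuCCT1 ones. For MLXIPL the same line difference was -1.80. At 10 µM relative to 1.25 µM the line difference was 1.79 for ARRDC4, -1.81 for MLXIPL and 0.93 for TXNIP, the last of which lost its call when any of 7 libraries was left out. All 5 come from the interaction test in edgeR, with adjusted p-values given above.

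ARRDC4 also moved in opposite directions relative to vehicle: every OCUG-1 library was above vehicle and every HuCCT1 library below it, both at 10 µM (a line difference of 2.37) and with the combination (2.71). These 2 differences were not tested. Cell line and medium cannot be told apart in any of them.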

How the results depend on the processing

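The rise of ARRDC4 and fall of MLXIPL in OCUG-1 in both drug-arm contrasts, the rise of TXNIP there at 10 µM, the fall of ARRDC4 in HuCCT1 with the combination, and the line differences of ARRDC4 and MLXIPL in those contrasts kept their direction and call in every alternative run. With library totals as the scale the median of all genes shifts by 0.187 (HuCCT1 combination minus 1.25 µM), 0.181 (HuCCT1 10 minus 1.25 µM), -0.145 (HuCCT1 1.25 µM minus vehicle), 0.150 and 0.120 (the same drug-arm contrasts in OCUG-1) and 0.149 (vehicle lines). The cause of each change below was not tested.

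On that scale TXNIP in the OCUG-1 combination minus 1.25 µM was 0.55 (adjusted p 0.0402), MLXIP between vehicle lines 0.33 (0.00328), MLXIP in HuCCT1 10 minus 1.25 µM -0.15 (0.235) and MLXIP in HuCCT1 1.25 µM minus vehicle -0.40. In HuCCT1, values that turned positive were MLX 0.084 and ARRDC3 0.051 with the combination, and MLX 0.071, HK2 0.16 and PFKFB3 0.15 at 10 µM. With DESeq2, MLXIP was -0.26 (0.0159) in the HuCCT1 combination minus 1.25 µM and 0.19 (0.0336) between vehicle lines. With no filter, TXNIP was 0.37 (0.0321) in the OCUG-1 combination minus 1.25 µM, -0.44 (0.0419) for combination minus 10 µM, and 0.97 (0.0779) in the line difference at 10 µM. MLXIP was -0.31 (0.0895) in HuCCT1 10 minus 1.25 µM and HK2 0.0030 there. When the fit held only the compared groups, the HuCCT1 combination minus 1.25 µM gave MLXIP -0.25 (0.0409) and TXNIP -0.33 (0.0495), HuCCT1 10 minus 1.25 µM gave MLXIP -0.31 (0.0545), and the TXNIP line difference for the combination was 0.63 (0.0175). The uncalled MLXIPL line difference for combination minus 10 µM was 0.0086, and -0.013, -0.031 and -0.0054 with DESeq2, no filter and only the compared groups.

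Fitting only the compared groups moved the HuCCT1 list counts with the combination to 9 (targets), 3 (arrestins), 4 (thioredoxin), 3 (transporters), 5 (glucose 6-phosphate) and 4 (TXNIP turnover), and at 10 µM to 1 (MAX network), 4 (thioredoxin), 2 (transporters) and 2 (glucose 6-phosphate).

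The labels do not say whether replicate numbers pair the libraries, and the correlations over all genes do not settle it. Same-numbered libraries had a median correlation of deviations of -0.0295 in OCUG-1 and 0.0505 in HuCCT1, with a highest value of 0.396 in HuCCT1. In OCUG-1 3 of 12 and in HuCCT1 6 of 12 correlated best with their own number. HuCCT1 replicate 3 had the highest TXNIP to ARRDC4 ratio and lowest mitochondrial share under vehicle, 1.25 µM and 10 µM. With the combination it had neither. With the replicate block, MLXIPL in HuCCT1 10 minus 1.25 µM was -0.59 (0.0287), and OCUG-1 combination minus 10 µM had 659 calls, against 1077 without it, 1618 with DESeq2 and 717 with only the compared groups. HuCCT1 combination minus 1.25 µM had 2276 calls, and 3474 with only the compared groups. The line difference of combination minus 10 µM had 345, and 778 with DESeq2.

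Leaving out 1 library at a time gave, in HuCCT1, MLXIP -0.29 to -0.22 for combination minus 1.25 µM and -0.36 to -0.29 for 10 minus 1.25 µM, and in 10 minus 1.25 µM MLXIPL -0.86 to -0.44, TXNIP -0.47 to -0.049 and ARRDC4 -0.068 to 0.047. TXNIP was -0.30 to 0.12 in HuCCT1 combination minus 10 µM, and MLXIP -0.078 to 0.11 in OCUG-1 combination minus 1.25 µM. The TXNIP line difference at 10 µM was 0.71 to 1.19, that of MLXIPL for combination minus 10 µM -0.21 to 0.20, and that of MLXIP for 10 µM minus vehicle -0.13 to 0.039. Calls over all genes ranged from 877 to 3224, 3472 to 6284, 453 to 1460, 1710 to 4749 and 2342 to 3293 in HuCCT1 (combination minus 1.25, 10 minus 1.25, combination minus 10, 1.25 minus vehicle, combination minus vehicle), from 197 to 1509 and 653 to 2558 in OCUG-1 (combination minus 10, 1.25 minus vehicle), and from 125 to 543 and 1209 to 3385 in the line differences of the last-named contrasts. Low counts limit MLXIPL in HuCCT1 most.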
